A study of Mus musculus with 4 samples.

Results

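The transcriptomes of 2 mouse embryonic stem cell lines that lack different steps of the miRNA pathway were compared with each other. The Dgcr8 knockout cells carried the label dgcr8-/- and the Dicer knockout cells the label dicer-/-, and the labels give the strain V6.5 for both and for the WT cells. All cells were grown in DMEM with ESGRO, a leukaemia inhibitory factor preparation, and fetal bovine serum, and polyadenylated RNA was sequenced. The sources used here do not give the alleles, the number of clones, the parental line of each knockout or any use of feeder cells. Each group has 1 library, so line, culture and genotype cannot be told apart. The values below are sizes, with no test and no p-value. The comparison covers the 12986 genes, of 13815 in the table, that reached 1 CPM (a counts-per-million value) in either knockout library. The table holds 11123498 counts for the Dgcr8 knockout, 12309100 for the Dicer knockout and 9931625 for WT, and 1 CPM is 11.1, 12.3 and 9.93 counts. A log2 ratio is that of (CPM + 1) in the Dgcr8 over the Dicer knockout, and a gene counts as higher or lower at 2-fold or more on that scale. A fold is a plain ratio of CPM, with a 95% interval in parentheses that covers counting error only. Low counts from 2 to 9 were mostly even, 74.8% in the Dgcr8 and 69.7% in the Dicer knockout, and the intervals are too narrow if both mates of a read pair were counted.

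A primary miRNA transcript is cut in the nucleus by Microprocessor, in which DGCR8 binds the hairpin and Drosha cleaves its base. Dicer then cuts the released precursor in the cytoplasm into the duplex that loads an Argonaute protein. Loss of either step is known to remove canonical miRNAs, but the host transcript is left uncut without DGCR8 and is still cut without Dicer, and Dicer also makes small RNAs that need no Microprocessor. Dicer1 had 128 CPM in the Dgcr8 knockout, 20.1 CPM in the Dicer knockout and 79.9 CPM in WT. Dgcr8 had 20.9, 84.7 and 52.7 CPM in the same order. Each gene was lowest in the library named for it, and neither was at 0. The deleted exons are not named in the labels, so reads from the rest of each gene may remain. The other members of a 25-gene list of miRNA processing and RISC components all differed by less than 2-fold on the log2 scale. The largest of these differences was that of Dis3l2, a nuclease for uridylated precursors, at 47.8 and 23.9 CPM and a log2 ratio of 0.97. The genes directly beside it on chromosome 1, Cops7b and Chrnd, had log2 ratios of 0.97 and 0.56, and the part of gene position was not tested.

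The embryonic stem cell label was checked against 12 identity genes, all above the floor. Pou5f1, the pluripotency factor OCT4, had 1898 CPM in the Dgcr8 and 1635 CPM in the Dicer knockout, and Sox2 had 523 and 532 CPM. Both lines thus carried the defining markers, and 11 of the 12 genes differed by less than 2-fold between them. Zfp42 (REX1), a marker of the naive state, was the exception at 386 and 95.1 CPM. Of 22 feeder fibroblast and stromal genes, 14 were in the table and 9 passed the floor. The summed level of the 14 was 608 CPM in the Dgcr8 and 384 CPM in the Dicer knockout, most of it from Vim at 562 and 338 CPM. Pdgfrb, a mesenchymal growth factor receptor, had 8.45 and 0.812 CPM, and Twist1 went the other way at 2.25 and 5.85 CPM. Their part in the differences below was not tested.

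The host transcripts of miRNAs are the substrates on which the missing enzymes differ, so the mature sequences that they encode are shown first. The sequences are those of RefSeq on GRCm38.p6, with the seed, bases 2 to 8, in capitals. They were chosen because their hosts are described below, where all but Mir17hg differed past 2-fold between the knockouts. The first 5 lie in the miR-290 cluster on chromosome 7 (chr7:3218968-3220837, plus strand), within or beside the noncoding transcript D7Ertd143e.
mmu-miR-291a-3p: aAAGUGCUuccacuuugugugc
mmu-miR-294-3p: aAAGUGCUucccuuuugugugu
mmu-miR-295-3p: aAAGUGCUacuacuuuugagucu
mmu-miR-293-3p: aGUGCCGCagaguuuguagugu
mmu-miR-291b-3p: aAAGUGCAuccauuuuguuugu
The next 4 come from Mir17hg, the host of miR-17~92, on chromosome 14 (chr14:115043684-115044380, plus strand).
mmu-miR-17-5p: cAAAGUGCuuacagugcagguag
mmu-miR-20a-5p: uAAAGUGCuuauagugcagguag
mmu-miR-19b-3p: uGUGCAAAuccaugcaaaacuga
mmu-miR-19a-3p: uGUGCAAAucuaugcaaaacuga
The last 4 come from Dleu2 (miR-16-5p, chr14:61631936-61631957, minus strand), Mir22hg (chr11:75463772-75463793, plus strand), 6430411K18Rik (miR-127-3p, chr12:109592888-109592909, plus strand) and Mirg (miR-409-3p, chr12:109743204-109743225, plus strand).
mmu-miR-16-5p: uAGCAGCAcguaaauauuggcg
mmu-miR-22-3p: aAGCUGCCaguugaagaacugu
mmu-miR-127-3p: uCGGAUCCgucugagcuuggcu
mmu-miR-409-3p: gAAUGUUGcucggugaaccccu
The miRNAs miR-291a-3p, miR-294-3p and miR-295-3p share the seed AAGUGCU, and miR-17-5p and miR-20a-5p carry the same AAGUGC hexamer 1 base further on, in the seed AAAGUGC. In the WT small RNA library of 2594949 reads, miR-293-3p held 38.5% of the reads (exact binomial interval 38.4% to 38.5%), miR-294-3p 10.2%, miR-291a-3p 9.16% and miR-295-3p 6.31%. The miR-17~92 members were far rarer there, with miR-19b-3p at 0.0978%, miR-20a-5p at 0.0663% and miR-17-5p at 0.0577%. No small RNA library of either knockout was analysed here.

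The noncoding host transcripts that differed past 2-fold were all more abundant in the Dgcr8 knockout, and Mir17hg was not among them. D7Ertd143e, the host of the miR-290 cluster, had 433 CPM in the Dgcr8 knockout, 91.3 CPM in the Dicer knockout and 50.4 CPM in WT, 4.75-fold higher (4.45 to 5.07) in the Dgcr8 knockout than in the Dicer knockout. Mir17hg had 42.4, 41.4 and 1.71 CPM. The knockouts thus differed by 1.03-fold (0.903 to 1.17) at this host, although both stood far above WT. Mir22hg, the host of miR-22, had 55 counts in the Dgcr8 knockout, 15 in the Dicer knockout and 26 in WT, a ratio of 4.06 (2.26 to 7.73). Dleu2, which hosts miR-15a and miR-16, had 22, 4 and 2 counts. The host of miR-100, let-7a-2 and miR-125b-1, listed as 2610203C20Rik, had 29, 7 and 56 counts, so that WT was the highest of the 3. E130102H24Rik, with 2 listed mature miRNAs led by miR-101a-3p, had 30, 10 and 12 counts. Hosts of this kind are thus told apart by few counts, and the folds of the rare ones are known only loosely.

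Of 23 noncoding hosts in the table, found by a miRNA gene inside their RefSeq span or within 2 kb of it, 18 passed the floor, and 9 of these passed through 1 library only. In all, 9 were higher and 0 lower, but 6 of the 9 were below the floor in the Dicer knockout and had passed only through the Dgcr8 knockout, where a host cannot come out lower. Over all genes compared, 4.15% were higher and 5.05% lower, 9.2% in either direction. The median log2 ratio of the 18 was 0.95, against 0.00 over all genes. Without the hosts of the Dlk1-Dio3 locus, a set chosen after the values were seen, 5 were higher and 0 lower and the median was 0.19. Of the hosts whose summed mature miRNAs reached a level of 100 RPM (a reads-per-million value) in WT, 7 of 10 were higher, with a median of 1.18. Of those below that level, 2 of 8 were higher, with a median of 0.09, and both belong to the Dlk1-Dio3 locus (Rian and Meg3). The floor limit holds in both classes. In the first, 2610203C20Rik, 6430411K18Rik, Dleu2, E130102H24Rik and Mirg passed only through the Dgcr8 knockout, and in the second Meg3 did. Hosts that stood close together included AI854517, listed for miR-9, at 13 counts in each knockout, Ftx at 11 and 17 counts and 5730408K05Rik at 48 and 60. Raver1-fdx1l had 1172 and 1045 counts, 2810008D09Rik 114 and 140, and Alms1-ps2 50 and 69. Of the rest, C430049B03Rik, the host of miR-322 and miR-503, had 19 and 6 counts, and Sox2ot 5 and 21, each short of 2-fold on the log2 scale. The strand of 5 hosts was not known. The mature levels count only miRNAs matched by name, and the small RNA table names some miRNAs of the miR-290 cluster differently from RefSeq. A mature miRNA that is also encoded elsewhere was counted in full for the host, so these levels are not the output of the host alone. Among protein-coding hosts 25 of 409 above the floor were higher and 8 lower, with a median of 0.12. The median of the 31 with mature miRNAs at 100 RPM or more was -0.02, and it was 0.08 for the 56 at 10 RPM or more and 0.13 for the 13 at 1000 RPM or more. The hosts on either side included Epha4, an ephrin receptor gene, at 31.9, 7.80 and 79.0 CPM in the Dgcr8 knockout, the Dicer knockout and WT, and Pink1, the mitophagy kinase gene, at 24.9, 141 and 14.4 CPM.

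**Figure D1:**
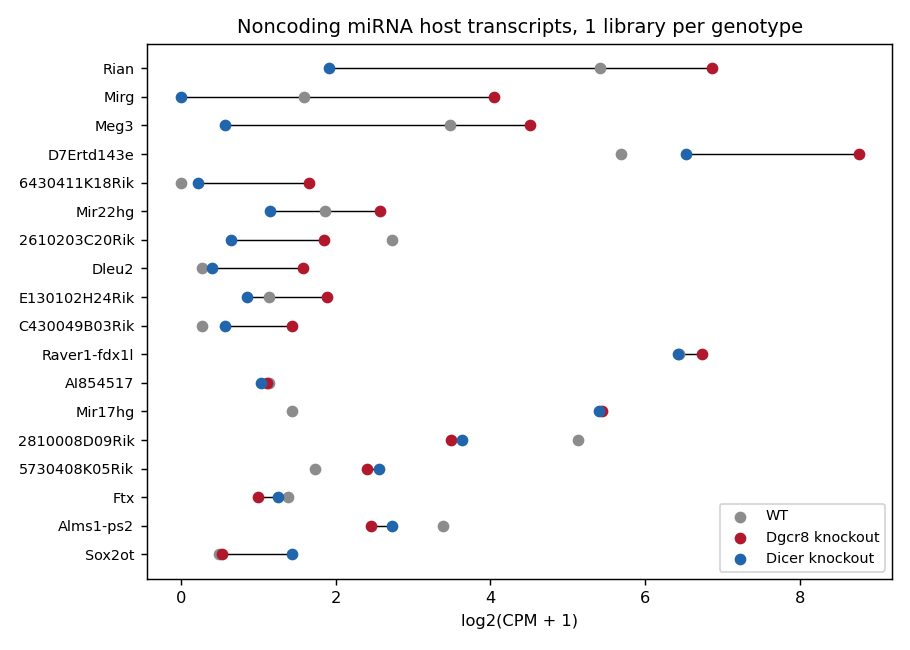
Levels of the 18 noncoding miRNA hosts above the floor, as log2(CPM + 1) on the horizontal axis, with 1 point per library and a line joining the knockouts. The Dgcr8 knockout lies to the right of the Dicer knockout for D7Ertd143e and the Dlk1-Dio3 hosts Rian, Mirg and Meg3, while the knockout points of Mir17hg nearly coincide.

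Across all genes the libraries were close. In total 9726 genes (74.9%) lay within 1.5-fold of each other, and the central 90% of log2 ratios ran from -1.01 to 0.94. There were 539 genes higher in the Dgcr8 knockout and 656 lower, and 63 and 114 at 4-fold or more. Of the 539, 145 had passed the floor only through the Dgcr8 knockout, and of the 656, 257 only through the Dicer knockout. Such genes could not come out the other way, so the counts and shares in each direction are partly set by the floor. The counting interval lay wholly past 2-fold for 306 of the higher and 444 of the lower genes, and for 200 and 272 if the counts are halved. The share past 2-fold depended on abundance, from 20.8% of genes with a mean below 2 CPM to 2.13% of genes at 100 CPM or more. The WT library lay between the knockouts for 249 of the higher and 305 of the lower genes. It was above both for 168 (31.2%) of the higher and 61 (9.30%) of the lower genes, and below both for 122 (22.6%) and 290 (44.2%). Over all genes compared WT was above both for 32.0%, between them for 19.9% and below both for 48.1%. Among the most abundant genes past 2-fold were Lefty2, Sf3b3, Scd2, Sulf2 and Stmn2 on the higher side, and Mt2, Mt1, Apoe, Morf4l2 and Ifitm1 on the lower side. Sf3b3, a splicing factor subunit on chromosome 8, had 980.0, 432 and 472 CPM in the Dgcr8 knockout, the Dicer knockout and WT.

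Several of the most extreme genes belong to no list. Kbtbd11, a Kelch and BTB domain gene on chromosome 8, had 342 counts in the Dgcr8 knockout, 4 in the Dicer knockout and 146 in WT, 94.6-fold higher (36.6 to 349). Grin1, the obligate NMDA receptor subunit gene, had 116, 2 and 10 counts. The GTPase dissociation inhibitor gene Arhgdib had 28.0, 2.84 and 16.3 CPM and was 9.83-fold higher (6.92 to 14.4). Kbtbd11 and Arhgdib thus had their lowest level in the Dicer knockout, with WT in between. Nespos, the antisense RNA of the imprinted Gnas locus, had 62, 0 and 23 counts, at least 22.9-fold higher when the 0 is set to 3 counts. The ribosomal protein gene copy Rpl10l, with 106, 15.5 and 39.8 CPM, resembles Rpl10 closely enough that reads may be shared. On the lower side Tek, the angiopoietin receptor gene TIE2, had 3.78, 52.0 and 6.04 CPM, 13.8-fold lower (10.1 to 19.3). Nrsn1, a neuronal vesicle gene, had 6, 196 and 2 counts, and Gadd45g, a stress-inducible growth arrest gene, had 10, 175 and 5. WT lay with the Dgcr8 knockout at Tek, Nrsn1 and Gadd45g. Pla2g1b, a secreted phospholipase gene, differed from these with 6, 169 and 675 counts, so that WT was the highest library.

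**Figure D2:**
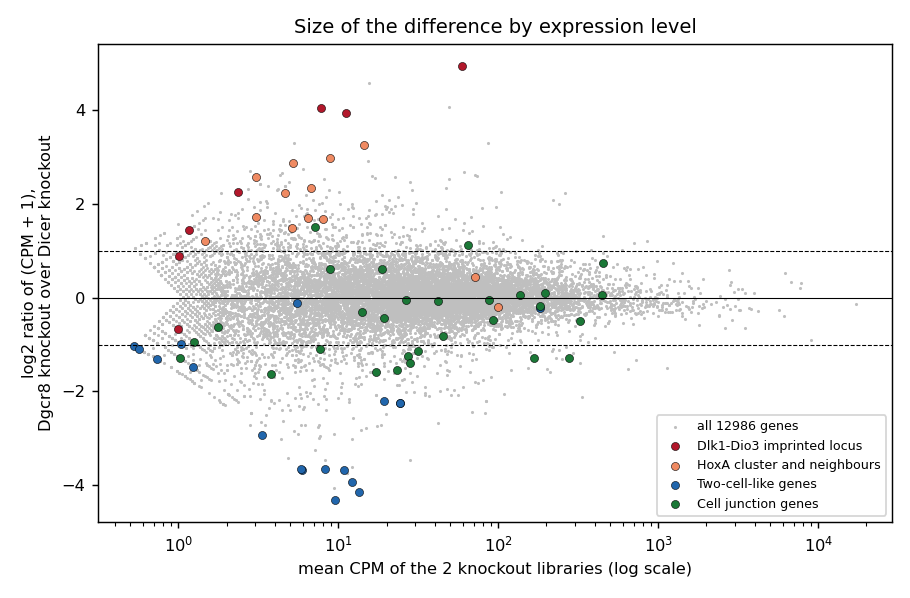
Log2 ratio of (CPM + 1), Dgcr8 over Dicer knockout, against the mean CPM of both libraries on a log axis, 1 point per gene, with dashed lines at 2-fold. Members of the HoxA and Dlk1-Dio3 lists lie mostly above the upper line, 15 of 18 two-cell-like genes below the lower line, and 10 of 29 junction genes below it.

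The longest run of neighbouring genes that were all higher in the Dgcr8 knockout was the HoxA cluster, a set of homeobox genes that pattern the body axis and are largely silent in undifferentiated stem cells. The run held 12 genes, among them Hoxa3, Mira, Hoxa9, Hoxa10, Hoxa11 and the flanking gene Evx1. Hoxa10 had 302 counts in the Dgcr8 knockout, 24 in the Dicer knockout and an empty cell, read as 0, in WT, a ratio of 13.9 (9.18 to 22.1). Hoxa9 had 185, 15 and 0 counts and a ratio of 13.6 (8.06 to 24.9). Hoxa11 had 66, 2 and 0 counts, and the noncoding Mira, which lies among the Hoxa genes, had 110, 6 and 0. The Dgcr8 knockout was thus the only one of the 3 libraries with more than 50 counts at these 4 genes. Hoxa3 had 132, 19 and 3 counts, and Evx1, a homeobox gene of the posterior primitive streak, 141, 40 and 0. Skap2, the neighbour on the other side, had 81.8, 60.2 and 38.5 CPM and a log2 ratio of 0.44. Of 16 genes listed for the cluster and its neighbours, 13 passed the floor, 5 of them through 1 library only, and 11 were higher. The sources used here do not say whether the counting used strand, so reads of the sense and antisense genes in the cluster may not be told apart.

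The imprinted Dlk1-Dio3 locus on chromosome 12 formed another run on the higher side, with Meg3, Rtl1, 6430411K18Rik, Rian and Mirg next to each other. Of this run only Rian reached the floor in the Dicer knockout, so the others could not come out lower. In the list of the locus 7 genes passed the floor, 6 of them through 1 library only, and 5 were higher and 0 lower. Meg3, Rian and Mirg are noncoding transcripts of the maternal allele, and Rtl1 and Dlk1 are protein genes of the paternal allele. Rian had 116 CPM in the Dgcr8 knockout, 2.76 CPM in the Dicer knockout and 41.6 CPM in WT. Meg3 had 21.8, 0.487 and 10.2 CPM, and WT lay between the knockouts at both genes. Rtl1 had 51, 2 and 0 counts, but its sequence is antisense to miRNA genes of the locus, so its reads may not be told apart from theirs. Dlk1, which encodes a Notch-like membrane protein, had 18, 5 and 51 counts and was highest in WT. Of 31 imprinted genes elsewhere, 2 were higher and 3 lower, with a median log2 ratio of -0.15. Peg3, a paternally expressed zinc finger gene, had 13.4, 60.7 and 5.74 CPM, 4.53-fold lower in the Dgcr8 knockout (3.80 to 5.44). Grb10, a growth-restraining adaptor, had 24.6, 95.5 and 114 CPM, and the CDK inhibitor gene Cdkn1c had 5.39, 15.4 and 59.7 CPM. At these genes the Dicer knockout was the library nearer to WT for Grb10 and Cdkn1c, and the farther for Peg3. Nnat, a neuronal membrane proteolipid gene, was higher at 82, 20 and 59 counts, and so was the noncoding Peg13 at 24, 2 and 14.

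Genes of the two-cell-like state, a rare and transient state of cultured stem cells that resembles the cleavage embryo, were concentrated in the Dicer knockout library. The Zscan4 genes, zinc finger genes that mark this state and protect telomeres, formed a run of 6 lower genes on chromosome 7. Zscan4c had 6 counts in the Dgcr8 knockout, 326 in the Dicer knockout and 7 in WT. Zscan4f had 7, 294 and 7 counts, and Zscan4d 4, 200 and 2. The Dgcr8 knockout and WT thus had fewer than 10 counts at each of these while the Dicer knockout had 200 or more. Duxbl1, a double homeobox gene, had 69, 397 and 3 counts and was lowest in WT, 5.20-fold lower in the Dgcr8 than in the Dicer knockout (4.02 to 6.82). Of the 19 members found among the counted genes, 18 passed the floor, 13 of them only through the Dicer knockout, where they could come out only lower. In all 15 were lower and 0 higher. Eif1a, a translation initiation factor gene of the list that is expressed throughout, had a log2 ratio of -0.22, and Zfp809, a retroviral silencing factor gene, -0.12. The marker Dppa3 (Stella) of oocytes and germ cells had 11, 287 and 49 counts. Bulk RNA cannot tell more cells in such a state from more RNA per cell.

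Because the Zscan4 genes moved together and are near-identical copies, the 250 bases before the start of Zscan4b (chr7:10905051-10905300, minus strand) and Zscan4f (chr7:11397665-11397914, plus strand), from RefSeq on GRCm38.p6, are set side by side. Capitals mark the 13 positions at which they differ; 237 are the same.
Zscan4b: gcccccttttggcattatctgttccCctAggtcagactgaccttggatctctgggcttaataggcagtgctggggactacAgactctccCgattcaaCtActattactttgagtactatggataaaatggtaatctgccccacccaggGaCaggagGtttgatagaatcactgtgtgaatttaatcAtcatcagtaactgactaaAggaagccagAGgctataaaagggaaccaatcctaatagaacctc
Zscan4f: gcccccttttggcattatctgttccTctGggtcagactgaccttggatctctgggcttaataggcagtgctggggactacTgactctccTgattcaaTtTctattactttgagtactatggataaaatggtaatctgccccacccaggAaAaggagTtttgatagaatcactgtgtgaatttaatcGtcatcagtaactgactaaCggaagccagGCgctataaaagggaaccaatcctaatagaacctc
These bases lie before the transcripts, which were not compared here. If the transcripts are as alike, reads of 1 gene can be counted for another, and the counts of single members are uncertain. Other runs of copies were lower too, among them 8 predicted genes on chromosome 12 from Gm8300 to Gm5039, and Duxbl2 with Duxbl3, which share the same counts of 87, 505 and 4.

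Pluripotency and lineage lists were mixed. For the list counts here and below, the shares over all genes compared were 4.15% higher and 5.05% lower. These shares, and the counts of lists with rare transcripts, include genes that passed the floor through 1 library only and could not come out the other way. Of 30 core and naive pluripotency genes 3 were higher, 1 (Dppa3) was lower, and 23 lay above 0, with a median of 0.34. Zfp42 was 4.06-fold higher (3.80 to 4.33), with 488 CPM in WT. Tbx3, a T-box factor of naive cells, had 74.3, 19.3 and 239 CPM and was 3.86-fold higher (3.34 to 4.48). Tet2, a methylcytosine dioxygenase, had 89.1, 42.4 and 88.2 CPM. The Dicer knockout was the lowest library for each of these. Zfp42 lies on chromosome 8, where most genes had a log2 ratio above 0, and without chromosomes 1, 6 and 8 the median of the list was 0.21. Among 17 genes of the primed epiblast, the later state that precedes gastrulation, 7 were lower and 0 higher, with a median of -0.17. Of the 17, 3 passed the floor through 1 library only. The cadherin gene Cdh2 had 8.09, 26.5 and 0.101 CPM, the SOX factor gene Sox4 5.84, 21.1 and 4.83 CPM, and Dnmt3a, a de novo DNA methyltransferase, 59.4, 124 and 56.9 CPM. Sox3 had 2, 49 and 5 counts, and as it was below the floor in the Dgcr8 knockout it could not come out higher.

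Neural genes were split, with 7 lower, 3 higher and 8 neither of 18 above the floor. Of the 18, 4 passed through 1 library only. The lower side was led by neurogenic transcription factors. Insm1 had 2 counts in the Dgcr8 knockout, 229 in the Dicer knockout and 2 in WT, Neurog1 had 0, 119 and 0, and Neurod1 had 16, 213 and 14. These 3 genes had 16 counts or fewer in WT and the Dgcr8 knockout alike, and Neurog1 was at least 35.8-fold lower against a floor of 3 counts in the library at 0. Insm1 and Neurog1 were below 1 CPM in the Dgcr8 knockout, so they could not come out higher. Pax6 had 5.93, 15.4 and 0.201 CPM, and was lowest in WT. The higher members were the adhesion molecule gene Ncam1 (32.2, 13.7 and 12.8 CPM), the tubulin regulator gene Stmn2 (509, 249.7 and 166 CPM) and Gap43 (15, 2 and 297 counts). Gap43 was below 1 CPM in the Dicer knockout, so it could not come out lower. Of 20 germline genes, 7 were lower and 2 higher, and 5 of the 20 passed the floor through 1 library only. The X-linked homeobox genes Rhox6 and Rhox9 had 4.14 and 3.06 CPM in the Dgcr8 knockout, 32.8 and 26.9 CPM in the Dicer knockout and 0.806 and 0.705 CPM in WT. Sycp3, of the synaptonemal complex, had 4, 48 and 68 counts. Stra8, the meiotic entry gene, went the other way at 10.6, 2.11 and 106 CPM, as did Tex13 at 38, 3 and 518 counts. Sycp3 was below the floor in the Dgcr8 knockout and Tex13 in the Dicer knockout, so neither could come out in the other direction. Mesoderm, endoderm and trophectoderm lists had 12, 9 and 13 genes above the floor, with 2, 0 and 1 higher and 1, 2 and 1 lower. Lama1, a basement membrane laminin, was lower at 5.48, 22.1 and 87.3 CPM, and the keratin gene Krt8 higher at 111, 48.7 and 39.6 CPM.

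**Figure D3:**
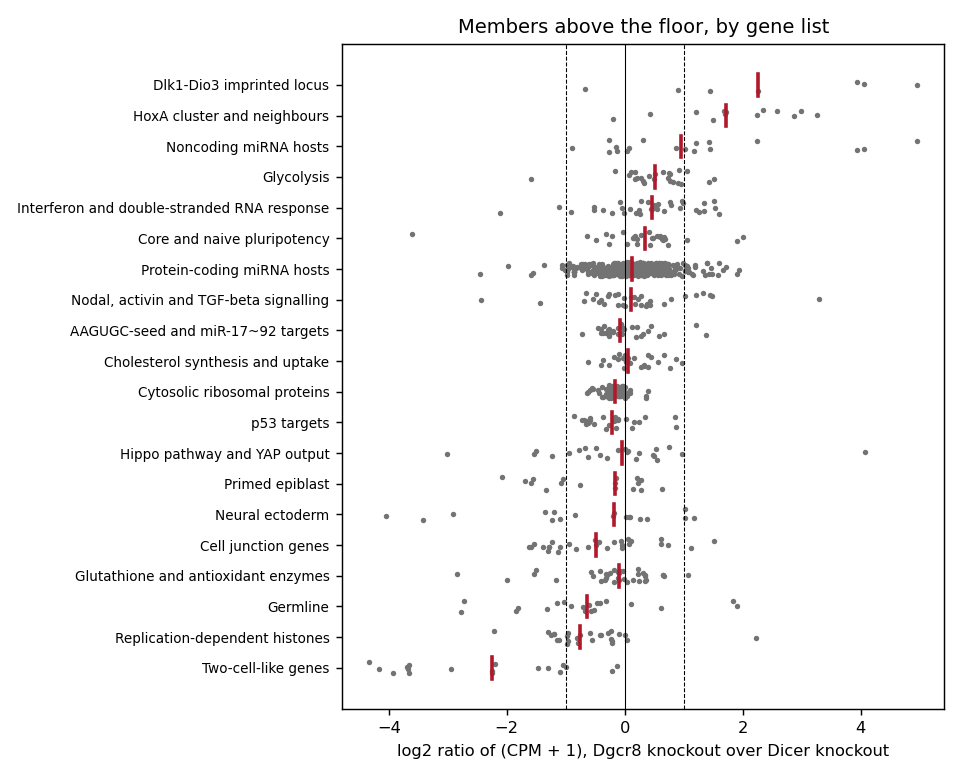
Log2 ratios of (CPM + 1), Dgcr8 over Dicer knockout, for the members above the floor of 20 gene lists, 1 point per gene, with a red bar at the list's median and dashed lines at 2-fold. Ribosomal protein genes and p53 targets stay inside the dashed lines, while the Dlk1-Dio3, HoxA and two-cell-like lists have medians past them.

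Signalling genes differed at single ligands and receptors more than as whole pathways. In the Nodal, activin and TGF-beta list 6 of 35 genes were higher and 2 lower, with a median of 0.10. Inhbb, the activin beta B subunit, had 157 CPM in the Dgcr8 knockout, 15.0 CPM in the Dicer knockout and 121 CPM in WT. Lefty2, a secreted Nodal antagonist and target, had 1194, 513 and 238 CPM and was 2.33-fold higher (2.26 to 2.40). Bmp7 had 8.63, 2.44 and 7.45 CPM, and Bmp4 53, 16 and 182 counts. The coreceptor gene Tgfbr3 had 6.83, 1.87 and 5.14 CPM, and the activin receptor gene Acvr1b 44.7, 21.5 and 24.7 CPM. The Dicer knockout was the lowest of the 3 libraries at Inhbb, Bmp7, Bmp4, Tgfbr3 and Acvr1b. Id2, an inhibitor of bHLH factors and a BMP target, was lower in the Dgcr8 knockout at 20.7, 116 and 15.4 CPM, a 5.63-fold difference (4.89 to 6.50), and so was Tgfb2 at 4, 33 and 4 counts. Inhbb and Lefty2 lie in the part of chromosome 1 where the median was raised.

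In the Hippo list, which holds the kinases that restrain YAP and the genes that YAP and TEAD factors drive, 4 of 24 genes were lower and 1 higher. The matricellular gene Thbs1 had 1.89 CPM in the Dgcr8 knockout, 22.4 CPM in the Dicer knockout and 0.201 CPM in WT, 11.9-fold lower (7.62 to 19.5). Ctgf had 23.8, 71.1 and 11.9 CPM, Cyr61 13.1, 39.2 and 6.34 CPM, and Amotl2, a junctional inhibitor of YAP that is also its target, 32.8, 78.2 and 23.1 CPM. All 4 were lowest in WT and highest in the Dicer knockout. Myof, a membrane repair ferlin, was higher at 93.9, 4.63 and 19.9 CPM. The kinase gene Lats2, a reported target of the AAGUGC seed that was picked after its values were seen, had 48.7 and 42.7 CPM beside 2.11 CPM in WT, a difference of 1.14-fold (1.01 to 1.29) between the knockouts. FGF and Wnt lists had 20 and 29 genes above the floor, with 1 and 2 higher and 1 and 3 lower. Over all genes compared, 4.15% were higher and 5.05% lower. Fgfr2 was lower at 4.94, 20.3 and 3.83 CPM, Fgf15 higher at 18.6, 5.93 and 5.34 CPM, and the ligand gene Wnt7b lower at 3.24, 12.9 and 1.61 CPM.

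Among cell junction genes more were lower than higher in the Dgcr8 knockout, with 10 of 29 lower, 2 higher and a median of -0.48. The adhesion molecule gene Epcam had 159 CPM in the Dgcr8 knockout, 392 CPM in the Dicer knockout and 138 CPM in WT, 2.46-fold lower (2.33 to 2.60). The tight junction claudin Cldn7 had 15.2, 41.3 and 7.65 CPM, and Cldn5 1.35, 6.26 and 1.11 CPM. The desmosomal plakophilin Pkp2 had 11.5, 35.3 and 14.1 CPM. WT lay near the Dgcr8 knockout for Epcam, Cldn5 and Pkp2. Further lower members, picked after their values were seen, were Cldn3, Cldn4, Cldn6, Ocln and Pkp1, and Cldn4 had 96.5, 238 and 31.8 CPM. The protocadherin gene Pcdh1 went the other way at 11.1, 3.25 and 2.52 CPM, as did the desmoglein gene Dsg2 at 89.4, 40.5 and 57.3 CPM. Of 35 extracellular matrix and integrin genes 2 were higher and 4 lower, beside 4.15% and 5.05% of all genes compared. The fibrillar collagen genes Col5a1 and Col5a2, whose products assemble into 1 fibre, differed in opposite directions, with 22.2 and 0.180 CPM in the Dgcr8 knockout and 7.88 and 4.39 CPM in the Dicer knockout. Of 30 muscle and contractile genes 3 were higher and 0 lower, namely Myof, the atrial myosin light chain gene Myl7 at 110, 35 and 72 counts, and the intermediate filament gene Des at 69, 20 and 506.

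**Figure D4:**
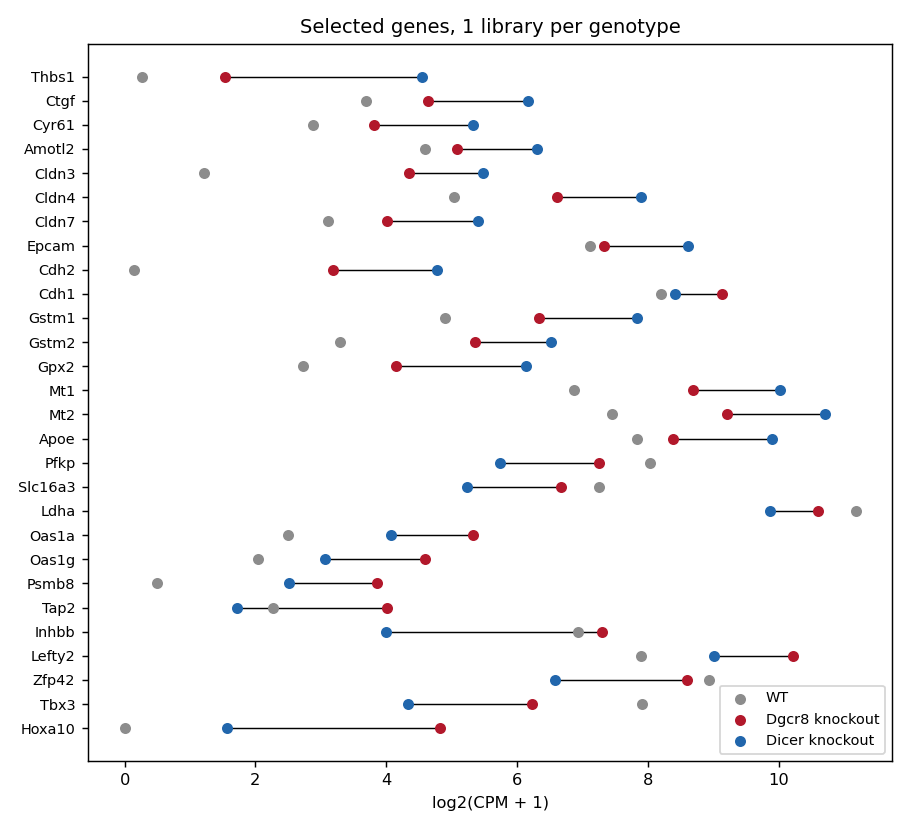
Levels of 28 genes of the junction, YAP, stress, glycolysis, interferon, signalling and stem cell groups, as log2(CPM + 1), with 1 point per library and a line joining the knockouts. The Dicer knockout lies to the right from Thbs1 down to Apoe except at Cdh1, and the Dgcr8 knockout lies to the right from Pfkp down to Hoxa10.

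Glycolytic genes leaned to the Dgcr8 knockout, with 23 of 25 above 0 and a median of 0.51, although 3 reached 2-fold. Those were Pfkp, a phosphofructokinase, at 152, 52.5 and 261 CPM, the lactate exporter gene Slc16a3 at 101, 36.8 and 152 CPM, and the hexokinase gene Hk1 at 126, 60.0 and 70.8 CPM. Ldha, chosen after its values were seen, had 1558, 929 and 2320.5 CPM, 1.68-fold higher (1.64 to 1.72). For Pfkp, Slc16a3 and Ldha the order was WT, then the Dgcr8 knockout, then the Dicer knockout. Ldhb was the only lower member at 105, 316 and 83.0 CPM, and it lies in the segment of chromosome 6 described below. Without chromosomes 1, 6 and 8 the median of the list was 0.73. No gene of 28 in cholesterol synthesis and uptake reached 2-fold in either direction, with a median of 0.05.

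Detoxifying and metal-binding genes were among the abundant transcripts that were lower in the Dgcr8 knockout. Metallothioneins are small cysteine-rich proteins that bind zinc and copper. Mt2 had 589 CPM in the Dgcr8 knockout, 1674 CPM in the Dicer knockout and 174 CPM in WT, 2.84-fold lower (2.76 to 2.92), and Mt1 had 412, 1039 and 115 CPM. Both lie on chromosome 8, against the direction of most genes there. The metallothionein list was added after the values were seen. The 250 bases before the start of Mt2 (chr8:94172368-94172617, plus strand) and Mt1 (chr8:94178839-94179088, plus strand), from RefSeq on GRCm38.p6, are shown with metal response element cores in capitals.
Mt2: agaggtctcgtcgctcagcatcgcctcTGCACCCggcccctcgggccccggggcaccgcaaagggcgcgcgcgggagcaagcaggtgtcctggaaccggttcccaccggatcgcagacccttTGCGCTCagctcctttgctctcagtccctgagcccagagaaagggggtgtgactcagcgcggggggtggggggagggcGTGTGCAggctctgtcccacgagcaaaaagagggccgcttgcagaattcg
Mt1: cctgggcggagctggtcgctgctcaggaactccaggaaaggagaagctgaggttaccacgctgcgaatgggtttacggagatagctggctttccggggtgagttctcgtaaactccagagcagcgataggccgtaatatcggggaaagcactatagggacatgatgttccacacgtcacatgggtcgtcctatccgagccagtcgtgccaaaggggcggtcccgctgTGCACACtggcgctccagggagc
The core was searched as TGCACNC or TGCGCNC on both strands, and the window of Mt2 held 3 matches and that of Mt1 1. Bases outside these windows were not searched, so the counts are not those of all elements of each gene. Of all 32841 promoter windows of this length 21.4% hold a match, so the motif is common, and a match describes the sequence only. In the glutathione and antioxidant list 5 of 38 genes were lower and 1 higher, with a median of -0.10. The glutathione S-transferase genes Gstm6, Gstm3, Gstm2 and Gstm1 form a run of 4 lower neighbours on chromosome 3, and being paralogs they may share reads. Gstm1 had 79.4, 226 and 28.8 CPM, and Gstm2 39.8, 91.1 and 8.76 CPM. Gpx2, a glutathione peroxidase, had 16.7, 69.3 and 5.64 CPM, and Gsto1 103, 300.0 and 67.1 CPM. WT was the lowest library at each of these 4. Apoe, the lipid carrier apolipoprotein, had 335, 956 and 227 CPM.

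Antiviral genes of the interferon and double-stranded RNA response were higher in the Dgcr8 knockout for 7 of 35 and lower for 2, with a median of 0.46. Among the higher genes were 2'-5' oligoadenylate synthetases, which sense double-stranded RNA. Oas1a had 39.2 CPM in the Dgcr8 knockout, 15.8 CPM in the Dicer knockout and 4.63 CPM in WT, 2.49-fold higher (2.10 to 2.96). Oas1g had 256, 91 and 31 counts, Oas2 16.5, 5.93 and 4.13 CPM, and Oasl1 7.73, 2.03 and 1.31 CPM. WT was the lowest library at all 4. The endosomal sensor gene Tlr3 had 28, 2 and 0 counts and lies on chromosome 8. Ifitm1, a membrane protein that restricts viral entry, had 124, 539 and 30.3 CPM and was 4.36-fold lower (4.12 to 4.63), and Rsad2 (viperin) had 16, 53 and 0 counts. Interferon-induced genes therefore did not move as 1 block. Because Oas1a and Oas1g moved alike, the 250 bases before the start of Oas1a (chr5:120907526-120907775, minus strand) and Oas1g (chr5:120887614-120887863, minus strand), from RefSeq on GRCm38.p6, are printed with interferon-stimulated response element matches in capitals.
Oas1a: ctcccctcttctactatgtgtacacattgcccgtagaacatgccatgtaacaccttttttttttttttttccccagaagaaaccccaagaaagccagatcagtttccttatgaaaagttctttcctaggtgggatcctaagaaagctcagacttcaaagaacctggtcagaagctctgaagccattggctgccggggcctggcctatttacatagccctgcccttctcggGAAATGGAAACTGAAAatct
Oas1g: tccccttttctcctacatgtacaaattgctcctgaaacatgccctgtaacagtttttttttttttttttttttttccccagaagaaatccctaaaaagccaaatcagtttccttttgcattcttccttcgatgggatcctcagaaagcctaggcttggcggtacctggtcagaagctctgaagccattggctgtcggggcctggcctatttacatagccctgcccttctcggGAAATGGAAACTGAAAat
The motif was searched as a pair of GAAA blocks with any 2 bases between them, on both strands, and each window held 2 overlapping matches. It occurs in 2.98% of all promoter windows and in those of 11 of the 31 list genes with an entry, among them the lower gene Rsad2. The windows of the higher genes Oasl1 and Tlr3 and of the lower gene Ifitm1 held 0 matches. A match describes the sequence only, and Oas1a and Oas1g, being paralogs, may share reads. In the antigen presentation list 3 of 23 genes were higher and 0 lower. Tap2, a subunit of the peptide transporter, had 15.1, 2.27 and 3.83 CPM, while its partner Tap1 had 6.38, 8.53 and 6.54 CPM. The immunoproteasome gene Psmb8 had 13.5, 4.71 and 0.403 CPM, and Psmb10, on chromosome 8, had 60.1, 27.6 and 32.8 CPM.

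Reported miRNA targets were close between the knockouts. Of 32 targets of the AAGUGC seed and miR-17~92, 2 were higher, 0 lower and the median was -0.09. The higher ones were Lefty2 and the nuclear receptor gene Nr2f2, the latter at 5.57, 1.54 and 0 CPM. Of 28 let-7 targets 2 were higher and 1 lower, and the median was -0.02. Hmga2, a chromatin architectural factor of fetal growth, had 92.1, 29.8 and 12.1 CPM and was 3.09-fold higher (2.74 to 3.49). Dicer1, the other higher member, is the targeted gene. Among 26 G1 cyclins, CDK inhibitors and their partners, E2f8 was higher at 496, 246 and 281 counts, and Cdkn1c and the retinoblastoma gene Rb1 were lower, Rb1 at 213, 497 and 246 counts. None of 26 p53 targets reached 2-fold in either direction, with 19 below 0 and a median of -0.22.

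Chromatin and housekeeping lists showed small differences, beside shares of 4.15% higher and 5.05% lower over all genes compared. Of 31 Polycomb genes 1 was higher and 3 lower, the latter Aebp2, Phf19 and Bmi1. Bmi1, a subunit of the ubiquitin ligase complex PRC1, had 11.3, 25.3 and 3.32 CPM, and Aebp2, a PRC2 cofactor on the chromosome 6 segment, 70.9, 161 and 81.1 CPM. In the DNA methylation list Tet2 was higher and Dnmt3a lower, each by close to 2-fold, and the remaining 18 genes were neither. Of 27 replication-dependent histone genes 7 were lower and 1 higher, with a median of -0.76. Most of their transcripts lack a poly(A) tail, so a poly(A) library holds few of them, and 10 passed the floor through 1 library only. None of 80 ribosomal protein genes reached 2-fold, and 71 lay below 0 with a median of -0.16. None of 31 proteasome subunits and none of 24 housekeeping genes reached 2-fold either, with medians of 0.00 and -0.06. The cleavage and polyadenylation factors with Isy1, a list added after the values were seen, also held 0 of 20 in either direction, with Isy1 at 66.6 and 54.4 CPM.

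The ratio also followed gene position on some chromosomes. On chromosome 8 the median log2 ratio of 694 genes was 0.47, 583 (84.0%) lay above 0, and 76 were higher against 9 lower. The same 694 genes had medians of 0.19 in the Dgcr8 knockout over WT and -0.24 in the Dicer knockout over WT. Each of 10 equal blocks in gene order on that chromosome had a median above 0, from 0.33 to 0.68. On chromosome 1 the last 6 such blocks, 425 genes, had a median of 0.45, and the first 3 blocks, 212 genes, -0.08. In the same knockout order, the medians over WT were 0.39 and 0.00 for the last 6 blocks and -0.18 and -0.07 for the first 3. At the end of chromosome 6, from Plekha5 onwards, 41 of 42 genes lay below 0, with a median of -1.19, 28 lower and 0 higher. The 42 genes just before them had a median of 0.02. That segment holds Ldhb, Aebp2, the calcium channel gene Itpr2 (2, 105 and 6 counts) and 3 runs of 4, 7 and 7 lower neighbours. Its genes had medians of -0.44 in the Dgcr8 knockout over WT and 0.69 in the Dicer knockout over WT, both against the same WT library. The 42 genes just before Plekha5 had medians of 0.51 and 0.45 in the same order. On the X chromosome the median was -0.17, and 49 of 441 genes were lower against 6 higher. Over the chromosomes other than 1, 6 and 8, 378 genes were higher and 561 lower, with a median of -0.03. Their medians over WT were 0.13 in the Dgcr8 and 0.16 in the Dicer knockout. The start at Plekha5 and the grouping of blocks on chromosome 1 were chosen after the values were seen. The counts and medians of these segments are thus partly set by that choice. The part of gene position in the gene-by-gene differences was not tested.

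**Figure D5:**
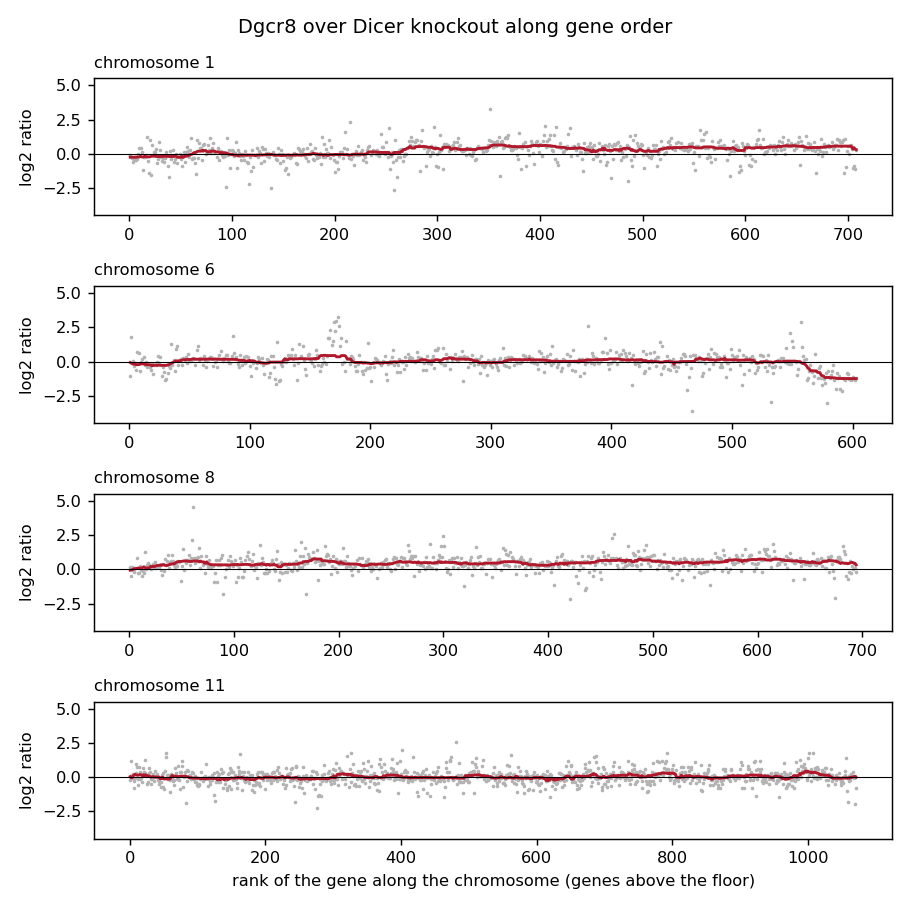
Log2 ratio of (CPM + 1), Dgcr8 over Dicer knockout, for genes above the floor in their order along chromosomes 1, 6, 8 and 11, with a red running median over 31 genes. The line stays near 0 on chromosome 11, mostly above 0 along chromosome 8 and the later part of chromosome 1, and drops below -1 at the end of chromosome 6.

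In all, 31 runs of 3 or more neighbouring genes moved past 2-fold together, 10 of them higher and 21 lower, and they held 144 genes. Besides the HoxA, Dlk1-Dio3, Zscan4 and Gstm runs, lower neighbours included Rsad2, Cmpk2, Sox11 and Dcdc2c on chromosome 12 and Rcbtb2, Rb1 and Lpar6 on chromosome 14. Sox11, a neural SOX factor gene, had 41.5, 96.4 and 16.3 CPM, and Lpar6, a lysophosphatidic acid receptor gene that lies within an intron of Rb1, had 10.2, 28.3 and 11.9 CPM. The genes Fignl2, Acvrl1 and Acvr1b on chromosome 15 formed a higher run, and 3 more higher runs lay on chromosome 8. Some runs hold overlapping or copied genes that share reads, so their members are not independent.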

How the data were processed

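The authors deposited raw counts, as whole numbers, per RefSeq entry for mRNA and per mature miRNA for small RNA. Per the submitters' processing notes, Bowtie and the mouse build mm9 were used; the sources used here do not name the counter, the annotation or any use of strand. Empty cells were read as 0. CPM were computed from each column's table total, and genes at 1 CPM or more in either knockout were kept. Ratios used a pseudocount of 1 CPM, and intervals are exact conditional binomial (Clopper-Pearson, 95%). Against a library at 0 the fold is a lower bound from 3 counts in that library. PCR reads are not independent molecules. No test was made, since each group is 1 library. Rows were matched to RefSeq genes of GRCm38.p6 for names and neighbours only, 13641 by accession, 131 by symbol, 31 by synonym and 12 not at all. Runs are 3 or more neighbouring table genes past 2-fold. Promoter and miRNA sequences are those of the RefSeq tables on GRCm38.p6, a different build from the counts.

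Named genes were drawn from the targeted genes, the 15 highest and 15 lowest ratios at 5 CPM or more, up to 6 members of each list by size of ratio and any needed to show both directions, all noncoding hosts above the floor, genes of runs and the 5 most abundant past 2-fold in each direction; others are named where a group is described. The comparison, its 43 lists and this rule were chosen with earlier results of these data known, so no count is independent support. The alternatives were pseudocounts of 0.1 and 5 CPM, no floor or one of 5 CPM, folds of 1.5 and 4, TMM factors (edgeR 4.0.16, R 4.3.3) or median-ratio factors as the scaling, the treatment of identical rows, halved counts, the host distance and the miRNA level. The procedure was tested on simulated data, in Python 3.11.15 with numpy 2.4.6, scipy 1.17.1 and pandas 2.3.3. The simulated counts held only the counting error that the intervals assume, and changes were placed in the more abundant genes only. Read pairs counted by both mates were not simulated, so the simulation cannot show how the intervals hold for them or how calls hold in rare genes. Results for a few genes are not reported here.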

Additional observations from a re-analysis of the deposited data

How the results depend on the processing

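The counts past 2-fold, 539 higher and 656 lower in the Dgcr8 knockout, depended on the fold asked for and on how low counts were treated. A pseudocount of 0.1 CPM gave 849 and 1004, and a pseudocount of 5 CPM gave 182 and 222. A floor of 5 CPM left 387 and 415. A 1.5-fold rule gave 1642 and 1618, and a 4-fold rule 63 and 114, so that at 1.5-fold slightly more genes were higher than lower. Median-ratio scaling moved the log2 ratios by -0.0038 and TMM scaling by -0.010, and these gave 532 and 660, and 521 and 664. Lists of rare transcripts moved most. With a pseudocount of 5 CPM, 4 noncoding hosts were higher instead of 9, 6 junction genes lower instead of 10, 2 interferon genes higher instead of 7, and 3 primed epiblast genes lower instead of 7. Without chromosomes 1, 6 and 8, an alternative added after seeing the data, 378 genes were higher and 561 lower. No median of 0.5 or more in size on the log2 scale, and no ratio past 2-fold among the named genes, changed sign under the settings run. Smaller medians did. That of protein-coding hosts with abundant mature miRNAs was -0.02 at 100 RPM but 0.08 at 10 RPM and 0.13 at 1000 RPM, and that of noncoding hosts below the level was 0.09 at 100 RPM but -0.14 at 10 RPM. No paired analysis was possible because each group has 1 library and the labels carry no replicate numbers. For the same reason no library could be left out.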
